A study of Mus musculus with 2 samples.

Results

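The genes of the eIF2 switch were taken as every row of the feature tables whose symbol is Eif2ak1, Eif2ak2, Eif2ak3, Eif2ak4, Eif2s1, Eif2s2, Eif2b5, Ppp1r15a or Ppp1r15b. All 9 were found, among 32285 genes in all. They were measured in cortical cells of wildtype (WT) and knockout (KO) mice for Fam69c, listed in the files as Dipk1c. All animals were males at 4 months of age, cortices were pooled by genotype, dissociated, stained with the dead-cell dye 7-AAD and sorted, and each genotype gave 1 droplet library with the 10x Genomics 3' chemistry. The labels name 7 mice, which could be the total or the number in each pool, and state neither strain nor knockout allele. With 1 library per genotype there was no replicate, so no test was made, and genotype, pool and library cannot be told apart. Every interval below is an exact 95% interval for counting error alone, and the limit given beside a count of 0 is the level of 3 counts.

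The deposited libraries held 7150 barcodes and 57166105 unique molecular identifiers (UMIs, each standing for 1 captured transcript) in WT, and 9182 barcodes and 75473717 UMIs in KO. Barcodes with fewer than 500 genes or over 20% mitochondrial UMIs were dropped, leaving 5152 and 7480 cells, and 17 barcodes of the deposited lists occurred in both libraries. Cells were gated into classes by the share of their UMIs in marker genes, so that a class is a range of a marker score and not a type. Cells that passed more than 1 gate were set aside. They were 23.8% of WT and 5.4% of KO cells, and 1027 of the 1226 WT cells set aside passed the hemoglobin gate, with a median of 1218 UMIs. Of the libraries' cells, 2166 WT and 4404 KO cells were astrocyte-marker cells, 593 and 821 oligodendrocyte-marker cells, 238 and 468 neuroblast-marker cells, 247 and 311 microglia-marker cells, and 138 and 260 endothelial-marker cells. In each of the 5 classes its own markers were the most abundant of the marker lists, which the gate itself brings about. At most 14 gated cells of a class and library lay below 30% of the reference marker share, near the gate at 25%. Cells just under the gate were not counted. In astrocyte-marker cells the summed markers of each other class were at or below 0.237% of UMIs, the highest being hemoglobin. Median UMIs per cell were 11942 in WT and 8925 in KO astrocyte-marker cells and were lower in KO in the other 4 classes too. The targeted transcript Dipk1c was at 59.7 CPM (UMIs of a gene per 1000000 UMIs of its class) in WT and 33.6 CPM in KO astrocyte-marker cells, but the labels do not say which stretch was deleted, so these 3' counts do not check the knockout.

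eIF2 is the protein complex that brings the initiator methionyl-tRNA to the small ribosomal subunit. When a kinase phosphorylates its alpha subunit, eIF2 binds tightly to its exchange factor eIF2B and general translation is slowed while messages such as Atf4 are translated, a program called the integrated stress response. In the brain the switch is known from memory formation, from myelinating oligodendrocytes and from vanishing white matter disease, in which eIF2B is mutated. The kinases each sense a different stress: Eif2ak1 (HRI) heme lack and mitochondrial stress, Eif2ak2 (PKR) double-stranded RNA, Eif2ak3 (PERK) unfolded protein in the endoplasmic reticulum, and Eif2ak4 (GCN2) uncharged tRNA and stalled ribosomes. Eif2s1 and Eif2s2 encode the alpha and beta subunits of eIF2, Eif2b5 the catalytic subunit of eIF2B, and Ppp1r15a (GADD34, inducible) and Ppp1r15b (CReP, constitutive) the regulatory subunits that direct protein phosphatase 1 to eIF2 alpha.

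In the GENCODE M21 annotation of GRCm38 the kinase genes are Eif2ak1 (ENSMUSG00000029613, chr5:143817788-143904251, plus strand), Eif2ak2 (ENSMUSG00000024079, chr17:78852564-78882573, minus strand), Eif2ak3 (ENSMUSG00000031668, chr6:70844515-70905245, plus strand) and Eif2ak4 (ENSMUSG00000005102, chr2:118388618-118475234, plus strand). The eIF2 and eIF2B genes are Eif2s1 (ENSMUSG00000021116, chr12:78861819-78887010, plus strand), Eif2s2 (ENSMUSG00000074656, chr2:154871410-154892935, minus strand) and Eif2b5 (ENSMUSG00000003235, chr16:20498817-20509323, plus strand). The phosphatase subunits are Ppp1r15a (ENSMUSG00000040435, chr7:45522916-45526268, minus strand) and Ppp1r15b (ENSMUSG00000046062, chr1:133131143-133139783, plus strand). A small nucleolar RNA gene, Gm23346, lies within Eif2ak3 on the same strand, and no other gene of the set has an annotated overlap on its own strand.

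The site on which the kinases and the phosphatase act lies in a coding exon of Eif2s1, at chr12:78866650-78866712 on the plus strand of GRCm38. It is shown as the site shared by the kinases and the phosphatase of the set. The capitals mark the codon of serine 51, which is codon 52 when the start codon is counted.

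Eif2s1 substrate site: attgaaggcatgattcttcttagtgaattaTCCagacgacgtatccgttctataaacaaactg

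The promoters of 2 of the genes are shown because their transcripts varied most among the classes, Eif2ak2 and Ppp1r15a. Each run is the 250 bases before the transcription start in RefSeq (GRCm38.p6), read toward the gene, at chr17:78882573-78882822 on the minus strand for Eif2ak2 and chr7:45526269-45526518 on the minus strand for Ppp1r15a. RefSeq promoters were matched for 8 of the 9 genes. Capitals mark matches on either strand to the cyclic AMP response element TGACGTCA, the amino acid response element core TGATGNAA or the interferon-stimulated response element core, which is GAAA, any 2 bases and GAAA again.

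Eif2ak2 promoter: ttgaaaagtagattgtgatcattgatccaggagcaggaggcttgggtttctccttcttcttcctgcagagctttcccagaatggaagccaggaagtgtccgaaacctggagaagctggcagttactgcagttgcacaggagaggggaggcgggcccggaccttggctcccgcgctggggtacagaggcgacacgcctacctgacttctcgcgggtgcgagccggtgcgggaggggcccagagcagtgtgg

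Ppp1r15a promoter: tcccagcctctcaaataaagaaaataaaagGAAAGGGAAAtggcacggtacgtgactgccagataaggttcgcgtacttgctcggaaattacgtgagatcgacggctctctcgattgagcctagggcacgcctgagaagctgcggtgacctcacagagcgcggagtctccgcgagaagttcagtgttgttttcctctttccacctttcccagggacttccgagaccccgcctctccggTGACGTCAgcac

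The Ppp1r15a window held a full TGACGTCA beginning 12 bases before the start, a match found in 1.55% of 32851 RefSeq promoters, and GAAAGGGAAA beginning 220 bases before it, where 2.98% of promoters hold a match to that core. The amino acid response element core stood in 3.45% of promoters and in none of the matched genes. The Eif2ak2 window held none of these letters. Among the other matched genes Eif2s1 alone had a match, GAAACAGAAA at 212 bases before the start. These matches describe letters in this window only.

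**Figure D1:**
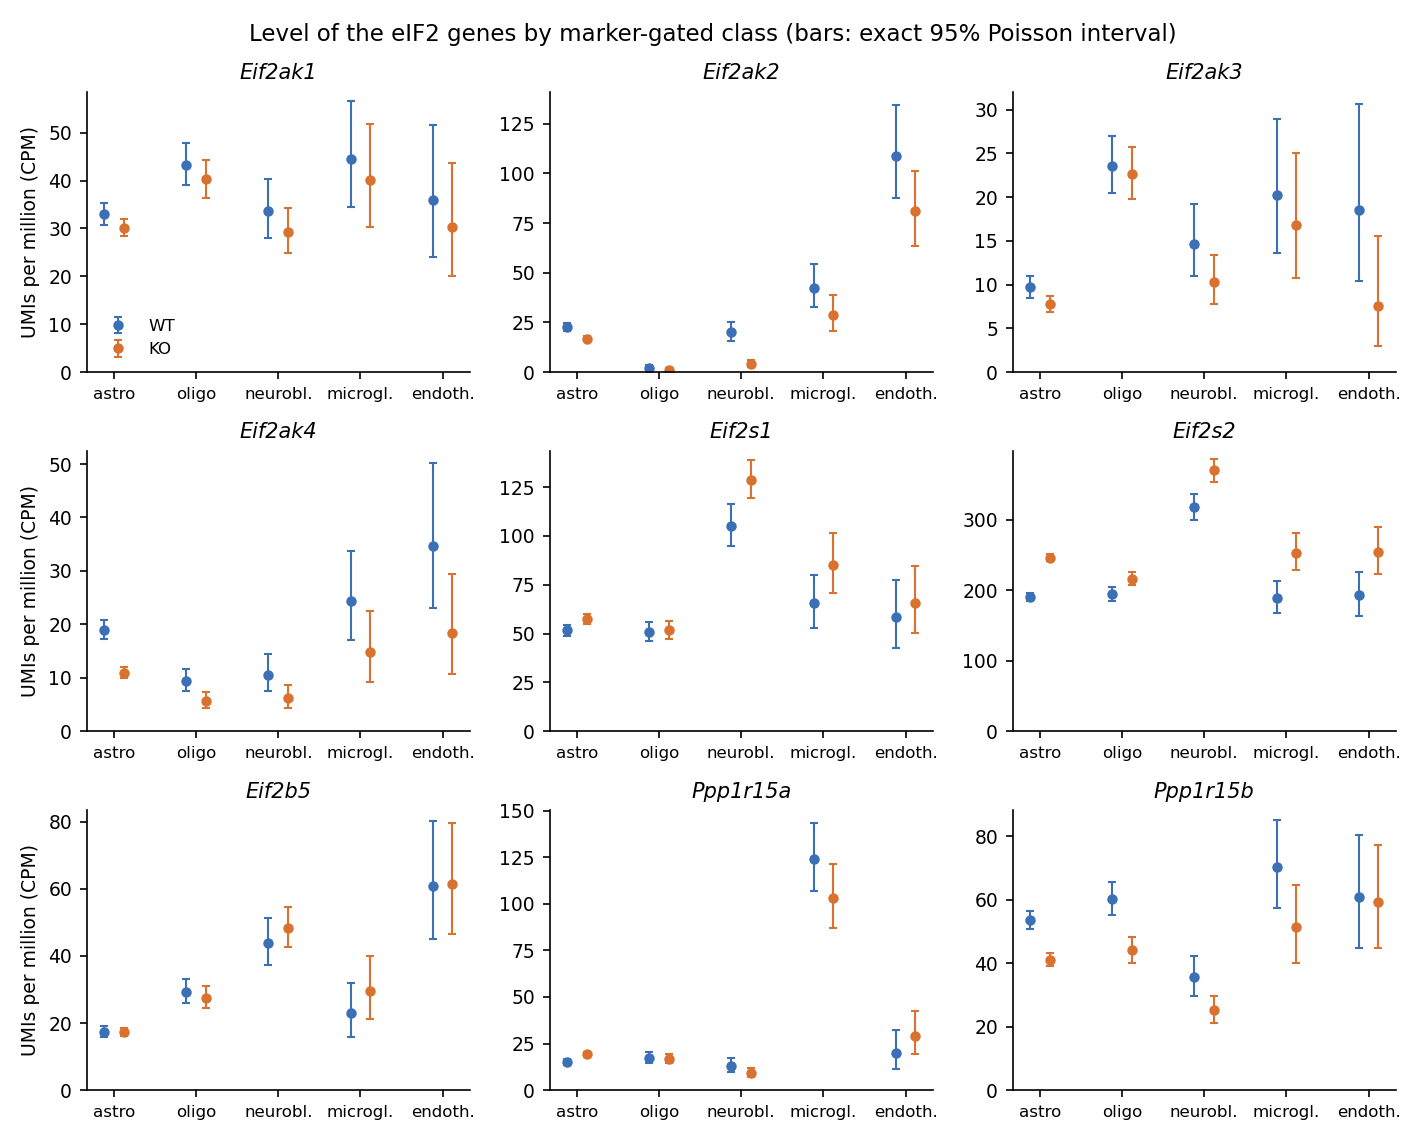
Level of each gene in CPM of the class total (vertical axis, each panel with its own scale from 0) in the 5 main marker-gated classes, with WT in blue and KO in orange and bars for exact 95% Poisson intervals. Eif2ak2 stands highest in endothelial-marker cells (109 and 80.9 CPM) and Ppp1r15a in microglia-marker cells (124 and 103 CPM), while Eif2ak1 lies between 29.4 and 44.6 CPM throughout.

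The genes of the switch were not spread alike over the classes, and for Eif2ak2, Eif2ak4 and Eif2s1 the order of the 5 classes was the same in both libraries, as the panels of levels by class show. Levels are CPM of the class total and were not divided by length, so they are compared between classes and never between genes. In such sums over cells, fewer cells with a transcript and less transcript per cell cannot be told apart.

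The kinase Eif2ak2 had the widest range. It was at 109 CPM in WT (88 UMIs, 87.4 to 134.3) and 80.9 CPM in KO endothelial-marker cells, at 42.5 and 28.8 CPM in microglia-marker cells, at 22.6 and 16.9 CPM in astrocyte-marker cells and at 2.29 and 1.09 CPM in oligodendrocyte-marker cells. The highest class stood 47.7 times above the lowest in WT and 74.4 times in KO, and the order endothelial, microglia, astrocyte, neuroblast, oligodendrocyte was the same in both. Only the WT astrocyte and neuroblast classes had overlapping intervals among neighbours in that order. Cells were also thinned to 2000 UMIs each, which left out those with fewer, 33 of 138 WT and 95 of 260 KO endothelial-marker cells. Of the rest, 15.2% held an Eif2ak2 UMI in each library, against 31.9% and 17.7% of all cells unthinned. Thinned to 4000 UMIs, which left out 70 WT and 177 KO cells, the shares were 33.8% and 25.3%. In oligodendrocyte-marker cells the shares at 2000 UMIs were 0.357% in WT and 0.128% in KO (unthinned 3.04% and 1.22%, median depth 14070 and 11298 UMIs).

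Eif2ak4 (GCN2) was highest in endothelial-marker cells, at 34.7 CPM in WT (28 UMIs) and 18.3 CPM in KO (17 UMIs), and lowest in oligodendrocyte-marker cells, at 9.37 and 5.64 CPM. Its class order was that of Eif2ak2 in both libraries, over a range of 3.70 times in WT and 3.25 times in KO, and neighbouring classes overlapped except astrocyte and neuroblast. Eif2ak3 (PERK), by contrast, was highest in oligodendrocyte-marker cells, the myelin-forming and strongly secretory glia, at 23.5 CPM in WT and 22.6 CPM in KO. Astrocyte-marker cells held 9.73 and 7.74 CPM of Eif2ak3, and those intervals lay apart from the oligodendrocyte ones, although neighbours in the order overlapped throughout. Eif2ak1 (HRI) varied least of the 9 genes, by 1.35 times in WT and 1.37 times in KO, with every pair of neighbouring classes overlapping.

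The eIF2 subunits were highest in neuroblast-marker cells, the immature neurons of the suspension. Eif2s1 was at 105 CPM in WT and 129 CPM in KO neuroblast-marker cells, against 50.7 to 65.5 CPM in the other WT classes and 51.7 to 85.0 CPM in the other KO classes. Eif2s2 was at 318 and 370.1 CPM there, against 189.7 to 195 CPM in the other WT classes and 216.5 to 255 CPM in the other KO classes. For both subunits the neuroblast interval lay above that of the next class in each library. Eif2b5, the catalytic subunit of the exchange factor, had another order: it was at 60.7 and 61.5 CPM in endothelial-marker cells and 44.0 and 48.4 CPM in neuroblast-marker cells, whose intervals overlapped, and at 17.4 and 17.3 CPM in astrocyte-marker cells.

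Of the phosphatase subunits, the inducible Ppp1r15a was at 124 CPM in WT (184 UMIs, 106.9 to 143.5) and 103 CPM in KO microglia-marker cells (147 UMIs, 87.3 to 121.4). No other main class exceeded 29.1 CPM. The constitutive Ppp1r15b varied less, from 35.7 CPM in WT neuroblast-marker cells to 70.2 CPM in WT microglia-marker cells, and from 25.1 to 59.3 CPM in KO. Neuroblast-marker cells were the lowest class for both phosphatase subunits and the highest for both eIF2 subunits.

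Over the 10 points made by 5 classes and 2 libraries, these orders appear as correlations of log2(CPM + 10), which describe the points and share library, depth and base composition. Eif2s1 and Eif2s2 had r = 0.90, Eif2ak2 and Eif2ak4 also 0.90, and Eif2ak1 and Eif2ak3 0.91. Eif2s2 and Ppp1r15b ran opposite, at -0.86. Among 13494 candidate genes, those most like Eif2ak2 were Shfl (r = 0.988), Irgm1 (0.984) and Ddx58 (0.982), of which Ddx58, the RNA sensor RIG-I, also stands in the list of interferon-stimulated genes used below. Those most like Ppp1r15a were Grn, Unc93b1 and Myd88 (0.989, 0.989 and 0.987), and those most like Eif2s1 were Nop58, Fam89b and Jpt1 (0.978, 0.978 and 0.977). Eif2s2 was most like Tsen34, Spag7 and Snrpa, Eif2b5 like Rpl38, Ctnnb1 and Sept10, and Eif2ak4 like Ino80d, Dpp8 and Tmem131, at r of 0.956 or more. For Eif2ak1 the nearest were Cyld, Trpc4ap and Wnk1, for Eif2ak3 Vps52, Ssr1 and Rubcn, and for Ppp1r15b Adcy9, Snx13 and Rest, at r of 0.916 or more.

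The second comparison set the libraries against each other within each class, as the log2 ratio of KO to WT. Scaled to the class total, all 4 kinases and Ppp1r15b were lower in KO in all 5 classes, and both eIF2 subunits were higher in all 5; scaling by a trimmed mean of gene ratios changed 1 of these directions, Eif2ak1 in astrocyte-marker cells, from -0.13 to 0.00. Removing the trend with transcript length turned Eif2ak1 to between 0.00 and 0.12 in the 4 classes where it had at least 100 UMIs, Eif2ak3 in oligodendrocyte-marker cells to 0.14 and Ppp1r15b in endothelial-marker cells to 0.22. Weighing each cell the same reversed Ppp1r15b in neuroblast- and endothelial-marker cells (0.37 in the latter) and Eif2ak3 in neuroblast-marker cells. Leaving cells unfiltered also reversed Ppp1r15b in endothelial-marker cells, and a stricter gate put Eif2s1 in oligodendrocyte-marker cells at -0.01. Thinning cells to equal depth left out those with fewer UMIs and left few UMIs in the smaller classes. Some directions there differed between the 2 depths tried. Eif2ak1 in microglia-marker cells was at 0.30 at 2000 UMIs per cell (12 UMIs in WT, 17 in KO) and 0.53 at 4000 (20 and 34 UMIs). Eif2ak2 in microglia-marker cells was at 0.08 (14 and 17 UMIs) and -0.54 (26 and 21 UMIs). Eif2ak3 was at 0.44 (17 and 32 UMIs) and -0.14 (48 and 60 UMIs) in oligodendrocyte-marker cells, and at 0.70 (4 and 11 UMIs) and -1.26 (17 and 13 UMIs) in neuroblast-marker cells. Ppp1r15b in neuroblast-marker cells was at 0.29 (13 and 27 UMIs) and -0.11 (20 and 34 UMIs). Eif2ak1 in astrocyte-marker cells was at -0.16 (137 and 253 UMIs) and 0.13 (196 and 423 UMIs), and Ppp1r15b in endothelial-marker cells at -0.48 (16 and 18 UMIs) and 0.17 (16 and 22 UMIs). Eif2ak3 in microglia-marker cells was at -1.34 (11 and 5 UMIs) and 0.47 (8 and 13 UMIs). Of these thinned values, the interval left out 0 for Eif2ak3 in neuroblast-marker cells at 4000 UMIs alone (-2.43 to -0.14). Few of the differences were large. A gene was called when it had at least 100 UMIs in the class and differed by at least 1.5 times. In astrocyte-marker cells 1 of 9 genes was called lower, Eif2ak4, where 7.36% of all 12326 genes were lower, and 0 higher, where 2.28% of genes were. In oligodendrocyte-marker cells 1 of 8 was called lower, again Eif2ak4 (3.71% of all genes), and 0 higher (2.59%). No gene was called in neuroblast-marker cells (0 of 6, with 8.04% of all genes lower and 0.962% higher), microglia-marker cells (0 of 6, with 6.16% and 4.88%) or endothelial-marker cells (0 of 5, with 5.02% and 4.13%). These shares are near the background, and the counts set no member apart by themselves.

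**Figure D2:**
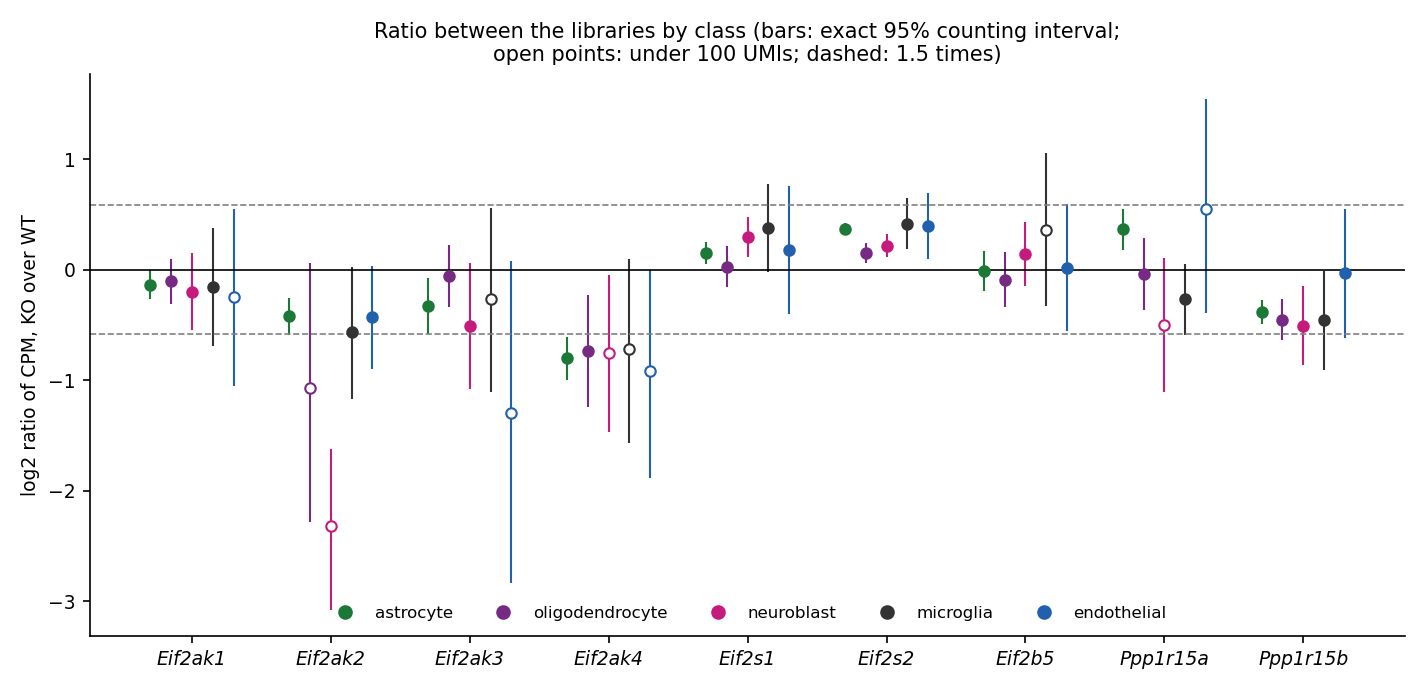
Log2 ratio of CPM in KO over WT (vertical axis) for each gene and marker-gated class, scaled to the class total, with exact 95% counting intervals; open points have under 100 UMIs and dashed lines mark 1.5 times. All 5 points of Eif2ak4 lie between -0.72 and -0.92 and all 5 of Eif2s2 between 0.15 and 0.42.

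Eif2ak4 had 19.0 CPM in WT (465 UMIs, 17.3 to 20.8) and 10.9 CPM in KO astrocyte-marker cells (415 UMIs, 9.90 to 12.0), a log2 ratio of -0.80 (-0.99 to -0.61). The intervals of the libraries lay apart, and 2.38% of genes with at least 100 UMIs had a lower ratio. In oligodendrocyte-marker cells the ratio was -0.73 (-1.25 to -0.23), from 82 and 57 UMIs. Under 100 UMIs, it was -0.75 in neuroblast-marker cells, -0.72 in microglia-marker cells and -0.92 in endothelial-marker cells. Thinned to 2000 UMIs per cell, with 181 WT and 312 KO cells of fewer UMIs left out, the astrocyte ratio was -0.47. Its interval was -0.91 to -0.01, from 71 and 106 UMIs, and the ratio was short of 1.5 times. At 4000 UMIs, with 390 and 901 cells left out, the ratio was -0.97 (-1.32 to -0.62, from 136 and 137 UMIs), past 1.5 times. In oligodendrocyte-marker cells the thinned ratios were -0.19 (9 and 11 UMIs) and -0.55 (17 and 16 UMIs), with intervals that included 0. Within astrocyte-marker cells the ratio was below 0 at each depth: -0.62 under 5000 UMIs per cell, -1.05 from 5000 to 10000, -0.76 from 10000 to 20000 and -0.89 from 20000 up. Under 5000 UMIs its interval included 0 (-1.35 to 0.12, from 28 and 42 UMIs). It was -0.73 in cells with at most 4% mitochondrial UMIs and -0.85 in the others. Thinned to 2000 UMIs, 3.38% of WT (2.63 to 4.27%) and 2.52% of KO astrocyte-marker cells (2.06 to 3.04%) held a UMI of it (17.7% and 8.58% unthinned), and thinned to 4000 UMIs, 7.43% and 3.68%.

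Transcript length moved with these ratios in every class. Across genes the rank correlation of the ratio with the longest coding transcript (GENCODE M21) was -0.59 in astrocyte-marker cells and between -0.53 and -0.60 in the 5 classes, genes not being independent. The median ratio of astrocyte-marker cells ran from 0.35 in the shortest of 20 length bins to -0.46 in the longest. The kinases and Ppp1r15b have the longest transcripts of the set, from 4313 bases (Eif2ak2) to 5594 bases (Ppp1r15b), and Eif2s2, Eif2b5, Ppp1r15a and Eif2s1 the shortest, at 2542, 2554, 2809 and 3405 bases. With the length trend removed Eif2ak4 (5298 bases) was at -0.50 in astrocyte-marker cells and -0.54 in oligodendrocyte-marker cells, short of 1.5 times, with 5.68% and 2.28% of genes lower still. Ppp1r15b moved from -0.38 to -0.08 and Eif2ak2 from -0.42 to -0.17 in astrocyte-marker cells. The part of RNA length or integrity in these differences was not tested.

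**Figure D3:**
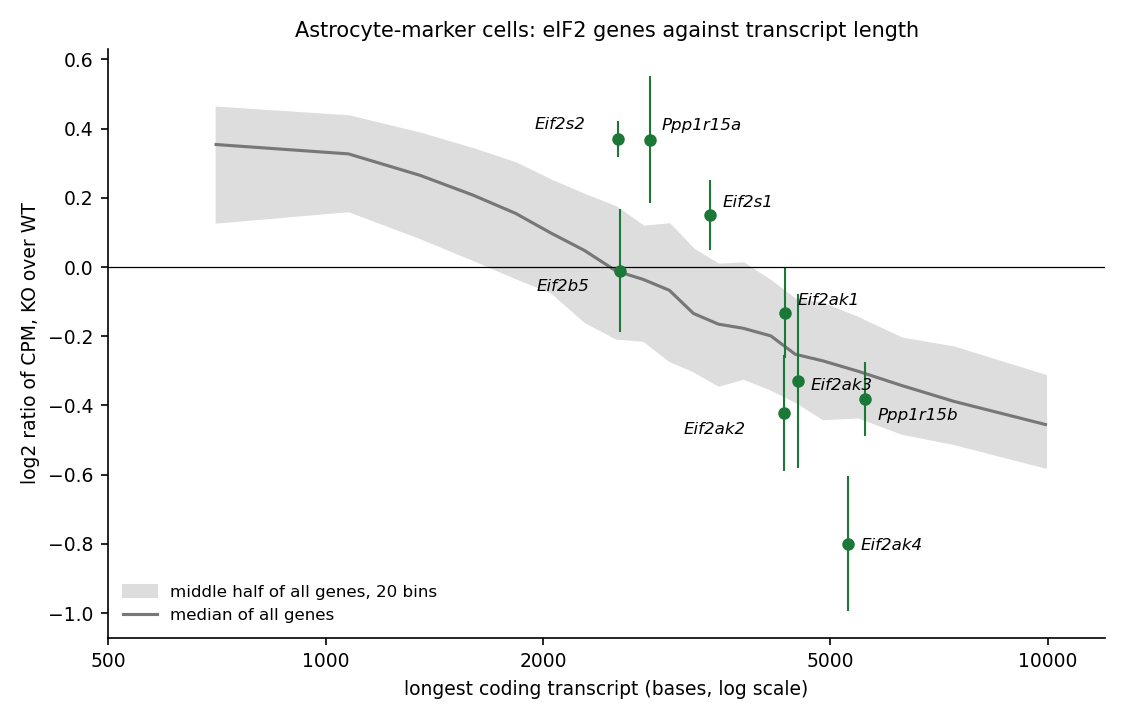
Log2 ratio of KO over WT in astrocyte-marker cells (vertical axis) against the length of the longest coding transcript in bases (log axis), with the 9 genes as points with exact 95% counting intervals, the median of all genes in 20 length bins as a line and the span from the 25th to the 75th percentile in grey. Eif2ak4 (-0.80 where its bin has a median of -0.30) and Eif2ak2 (-0.42 against -0.25) lie below the grey band, and Eif2s2, Ppp1r15a and Eif2s1 lie above it.

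The lowest ratio of any kinase was that of Eif2ak2 in neuroblast-marker cells, with 20.2 CPM in WT and 4.04 CPM in KO, a log2 ratio of -2.32 (-3.08 to -1.62). This rested on few cells. It had 73 UMIs in WT and 22 in KO, under the minimum of 100 together, and 4 of the 238 WT cells held 41 of the 73, or 56.2%. The UMIs lay largely in cells rich in interferon-stimulated transcripts, a list of 20 genes induced by interferon of which 19 were found and which does not hold Eif2ak2. In WT, 6 cells had at least 0.5% of their UMIs in that list, 2.52% of the class (0.931 to 5.41%), and held 42 Eif2ak2 UMIs at 349 CPM (251 to 472). In KO there were 0 such cells among 468, which at 3 counts allows a share of up to 0.641% (exact upper limit 0.785%). Without them Eif2ak2 was at 8.87 CPM in WT and 4.04 in KO, a ratio of -1.14 (-1.99 to -0.30). Without the 12 WT and 4 KO cells at 0.1% or more it was at 4.74 CPM (2.71 to 7.71) and 4.05 CPM (2.54 to 6.13), a ratio of -0.23 (-1.22 to 0.80). These cuts were chosen after the values were seen. Of the list itself, 7 of 8 genes with at least 100 UMIs were lower by 1.5 times in neuroblast-marker cells, where 8.04% of all genes were. Their median was -2.04, led by Bst2 (54.8 against 1.65 CPM), which tethers budding virus, and Isg15 (36.8 against 1.65 CPM), a ubiquitin-like modifier. The same 6 WT cells held 913 of the list's 1455 UMIs in WT, beside 430 UMIs in KO, so these ratios too rested largely on few cells.

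Within the endothelial class, too, the CPM of Eif2ak2 was highest in interferon-rich cells. Most of its UMIs there, 72 of 88 in WT and 49 of 75 in KO, lay in cells with 0.1% to under 0.5%. In endothelial-marker cells with at least 0.5% interferon-stimulated UMIs it was at 296 CPM in WT (9 cells, 148 to 530) and 176 CPM in KO (34 cells, 106 to 275), against 114 and 68.1 CPM in cells with 0.1% to under 0.5% and 33.6 and 73.7 CPM, from 4 and 6 UMIs, in cells above 0 and under 0.1%. Cells at 0.5% or more were 6.52% of WT and 13.1% of KO endothelial-marker cells. Astrocyte-marker cells with none of the list's UMIs held 21.4 CPM of Eif2ak2 in WT (18.3 to 24.8) and 15 CPM in KO (13.2 to 17.0). Those with 0.1% to under 0.5% held 98.0 CPM in WT (11 UMIs in 24 cells) but 7.13 CPM in KO (1 UMI in 25 cells). Over all astrocyte-marker cells the ratio was -0.42 (-0.59 to -0.26), and in microglia- and endothelial-marker cells -0.56 and -0.43, with intervals reaching just past 0. The part of interferon-rich cells in the astrocyte, microglia and endothelial ratios was not tested.

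**Figure D4:**
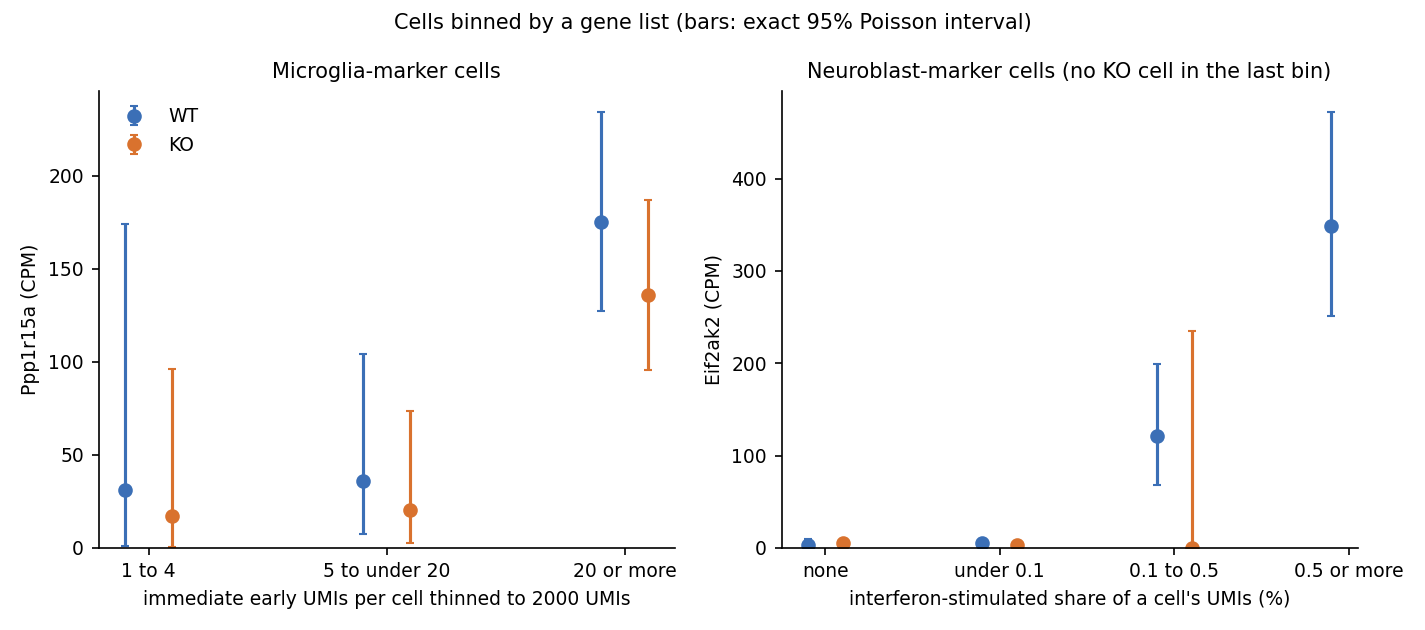
Left, Ppp1r15a in microglia-marker cells thinned to 2000 UMIs, by the number of immediate early UMIs per cell; right, Eif2ak2 in neuroblast-marker cells by the share of interferon-stimulated UMIs. Vertical axes are CPM, WT is blue and KO orange, and bars are exact 95% Poisson intervals; Ppp1r15a reaches 175 and 136 CPM in cells with 20 or more such UMIs, and Eif2ak2 349 CPM in 6 WT cells of the last bin, which holds no KO cell.

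Eif2ak3 (PERK) was at -0.33 (-0.58 to -0.08) in astrocyte-marker cells and -0.06 in oligodendrocyte-marker cells, its highest main class. It was at -0.51 (-1.08 to 0.06) in neuroblast-marker cells. Its lowest value, -1.30 in endothelial-marker cells, came from 15 and 7 UMIs and had an interval that included 0. Eif2ak1 (HRI) differed little, from -0.25 to -0.11, and its interval lay below 0 in astrocyte-marker cells alone (-0.26 to -0.002).

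Eif2s2, the beta subunit, was higher in KO in all 5 classes under class-total and trimmed-mean scaling alike. Astrocyte-marker cells held 191 CPM in WT (4664 UMIs) and 246 CPM in KO (9361 UMIs), a log2 ratio of 0.37 (0.32 to 0.42). The ratio was 0.15 (0.06 to 0.25) in oligodendrocyte-marker cells, 0.22 (0.11 to 0.32) in neuroblast-marker cells, 0.42 (0.19 to 0.65) in microglia-marker cells and 0.40 (0.10 to 0.70) in endothelial-marker cells. All 5 intervals lay above 0 and all 5 ratios were under 1.5 times; 89.3% of genes had a lower ratio in astrocyte-marker cells. With the length trend removed the ratio there was 0.38. By depth, however, astrocyte-marker cells with under 5000 UMIs gave -0.12 (-0.34 to 0.11), against 0.61, 0.44 and 0.21 in the deeper bins. Thinned to 2000 UMIs, 28.5% of WT (26.5 to 30.5%) and 34.2% of KO astrocyte-marker cells (32.8 to 35.7%) held an Eif2s2 UMI, while without thinning the shares were 68.7% and 69.6%.

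For the alpha subunit Eif2s1, the substrate of the kinases, the ratio was 0.15 in astrocyte-marker cells (0.05 to 0.25; 51.7 against 57.3 CPM) and 0.29 in neuroblast-marker cells (0.11 to 0.48). It was 0.03, 0.38 and 0.18 in oligodendrocyte-, microglia- and endothelial-marker cells, with intervals that included 0. Like the beta subunit, Eif2s1 was below 0 in the shallowest astrocyte-marker cells, at -0.28 (-0.76 to 0.20). Eif2b5 had no interval that left out 0: its ratios were -0.01 in astrocyte-, -0.09 in oligodendrocyte-, 0.14 in neuroblast-, 0.36 in microglia- and 0.02 in endothelial-marker cells.

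Ppp1r15b, the constitutive phosphatase subunit, was lower in KO by 0.38 in astrocyte-marker cells on the log2 scale (53.5 against 41.1 CPM). Its ratios in the other classes were -0.45 in oligodendrocyte-, -0.50 in neuroblast-, -0.45 in microglia- and -0.03 in endothelial-marker cells, and the interval lay below 0 in all but the last. Weighing each cell the same reversed the direction in neuroblast- and endothelial-marker cells. Astrocyte-marker cells with under 5000 UMIs gave 0.17 (-0.34 to 0.70), from 45 and 117 UMIs. The inducible Ppp1r15a differed from it in direction in astrocyte-marker cells, with 14.9 CPM in WT (365 UMIs) and 19.2 CPM in KO (731 UMIs), a ratio of 0.37 (0.18 to 0.55). At equal depth it was 0.79 (0.26 to 1.34) at 2000 UMIs per cell and 0.52 (0.18 to 0.87) at 4000. By depth the ratio was 0.05 (-0.78 to 0.93) in astrocyte-marker cells under 5000 UMIs, 0.56 and 0.43 in the bins between, and 0.92 (0.38 to 1.46) from 20000 up, where 138 WT cells held 65 UMIs and 62 KO cells 56. Of those 56, 19 lay in 1 cell, and without it the ratio was 0.35 (-0.27 to 0.95). In the other classes its intervals included 0: -0.04 in oligodendrocyte-, -0.50 in neuroblast-, -0.27 in microglia- and 0.56 in endothelial-marker cells.

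Ppp1r15a is known to be switched on with the immediate early genes, the transcription factors and regulators such as Fos and Jun that respond to stimulation and to tissue dissociation. Within microglia-marker cells thinned to 2000 UMIs, cells with 20 or more immediate early UMIs held 175 CPM of Ppp1r15a in WT (44 UMIs, 127 to 234) and 136 CPM in KO (37 UMIs, 95.8 to 187). Cells with 5 to under 20 held 35.7 CPM (3 UMIs, 7.37 to 104) and 20.4 CPM (2 UMIs, 2.47 to 73.7). The intervals of these bins lay apart in both libraries, and the upper cells were 66.0% of the thinned WT and 61.8% of the thinned KO cells. Ppp1r15b in the same bins was at 63.5 and 51.5 CPM, against 47.6 and 71.4 CPM, with intervals that overlapped in both libraries. The median number of immediate early UMIs per thinned cell was 39 in WT and 27.5 in KO microglia-marker cells, against 1 in astrocyte-marker cells of either library. It was 2 in oligodendrocyte- and 7 in endothelial-marker cells of either library. Neuroblast-marker cells, the lowest main class for Ppp1r15a, had 3 in WT and 4 in KO, so the main classes did not follow 1 order in both. In astrocyte-marker cells without any immediate early UMI, Ppp1r15a was at 7.21 CPM in WT (13 UMIs, 3.84 to 12.3) and 14.9 CPM in KO (54 UMIs, 11.2 to 19.5). Thinned to 4000 UMIs, the cells without any held 14.5 CPM (9.18 to 21.7) and 17.2 CPM (12.8 to 22.6), so the size of that difference was not kept at the deeper setting.

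The 7 smaller classes, with 50 or more cells in both libraries together, showed some of the widest values. Ppp1r15a was at 203.5 CPM in WT (122 UMIs) and 118.5 CPM in KO B cell-marker cells (48 UMIs), and at 145.5 and 112 CPM in T cell-marker cells, near the level of microglia-marker cells. WT neutrophil-marker cells held 191 CPM from 34 UMIs in 31 cells, but 20 of these, or 58.8%, came from 2 cells; KO neutrophil-marker cells held 22.7 CPM from 15 UMIs. Eif2ak3 was highest among these classes in B cell-marker cells, at 50.05 CPM in WT (30 UMIs) and 29.6 CPM in KO (12 UMIs). Eif2s1 had 0 UMIs in neutrophil-marker cells of both libraries, which at 3 counts allows up to 16.8 CPM in WT and 4.54 CPM in KO (exact upper limits 20.7 and 5.59 CPM), whereas Eif2s2 was at 61.8 CPM from 11 UMIs and 72.7 CPM from 48 UMIs there. In erythroid-marker cells, where the class's own markers, hemoglobin above all, made up 78.3% of WT and 71.1% of KO UMIs, Eif2s2 was at 53.6 and 56.4 CPM of the class total, and at 246.8 and 195 CPM of the UMIs left without those markers. Ppp1r15b was highest in monocyte-marker cells, at 112 CPM from 36 UMIs in 18 WT cells and 74.8 CPM from 83 UMIs in 84 KO cells.

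The other genes of the pathway were described from lists, by how many genes with at least 100 UMIs passed 1.5 times. Among all such genes, 7.36% were lower and 2.28% higher in astrocyte-marker cells. In oligodendrocyte-marker cells 3.71% and 2.59% were, and in neuroblast-marker cells 8.04% and 0.962%. The shares were 6.16% and 4.88% in microglia- and 5.02% and 4.13% in endothelial-marker cells. In lists this short, a count of 1 does not stand apart from such shares. The remaining subunits of eIF2 and eIF2B with their partners (10 genes, all with at least 100 UMIs in 3 of the 5 classes) had 0 past 1.5 times in any class. Their median ratio in astrocyte-marker cells was -0.10, beside -0.10 for all genes, and it was -0.10 over the 5 genes with at least 100 UMIs in microglia-marker cells, beside -0.01, and between 0.00 and 0.12 in oligodendrocyte-, neuroblast- and endothelial-marker cells. Within it Eif2b4, another eIF2B subunit, had the highest ratio (0.33, 28.2 against 35.5 CPM) and Abce1, a ribosome recycling factor, the lowest (-0.28). Eif2s3y, the Y-linked gamma subunit of these male mice, was at 137 and 124 CPM, and Eif5, the GTPase activator of eIF2, at 265 and 252 CPM.

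Regulators of the kinases (12 genes) had 0 of 12 past 1.5 times in astrocyte- and oligodendrocyte-marker cells and 0 of 5 in endothelial-marker cells, with medians of -0.09, -0.13 and -0.20. In neuroblast-marker cells 1 of 11 passed: Adar, an RNA-editing enzyme that keeps double-stranded RNA from PKR, was lower (26.3 against 15.4 CPM, -0.77), and in microglia-marker cells 1 of 9, Gcn1, the activator of GCN2 on ribosomes, was lower (112 against 73.8 CPM, -0.60). In astrocyte-marker cells Prkra, the PKR activator PACT, was at 0.32 and the chaperone Hsp90ab1 at 0.38. Of protein phosphatase 1 and its partners (7 genes), the catalytic subunit Ppp1ca was among the 2 highest in 4 of 5 classes, at 0.33 in astrocyte-marker cells (73.8 against 93.1 CPM) and at 0.69 in microglia-marker cells (162 against 261 CPM), where it was the 1 of 6 past 1.5 times. Ppp1cb, another catalytic subunit, was the 1 of 6 past 1.5 times in endothelial-marker cells (306 against 197 CPM, -0.63), and 0 of 7 passed in each of the other 3 classes.

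Downstream, Atf4 and targets of the integrated stress response (16 genes) had 0 of 12 past 1.5 times in astrocyte-marker cells, with a median of 0.17 against -0.10 for all genes. With the length trend removed the median was 0.09. Atf4 itself was at 77.6 CPM in WT and 77.8 CPM in KO (0.004), and the targets outside the 12 had under 100 UMIs there. Phgdh, of serine synthesis, and Ddit4, an mTORC1 inhibitor, had the highest ratios at 0.57 and 0.56, and Slc7a11, the cystine transporter, and Vldlr, a lipoprotein receptor, the lowest at -0.34 and -0.32. In oligodendrocyte-marker cells 3 of 10 were higher (2.59% of all genes), with Slc7a11 at 0.85 and Ddit4 at 0.76. Slc7a11 stood at 4.23 CPM in WT and 7.62 CPM in KO there, against 486 and 383 CPM in astrocyte-marker cells. Astrocyte markers made up 0.0392% of WT and 0.0554% of KO UMIs in oligodendrocyte-marker cells. The part of astrocyte transcripts in that ratio was not tested. Neuroblast-marker cells had 1 of 10 higher (0.962% of all genes), Asns, an amino acid synthesis enzyme (28.2 against 45.7 CPM), and 1 lower (8.04%), Vldlr. Microglia-marker cells had 3 of 8 higher (4.88% of all genes), with Ddit4 at 1.91 and Nupr1 at 0.98. They had 1 lower (6.16% of all genes), Atf3 (1145 against 713 CPM), which is also an immediate early gene. In endothelial-marker cells 2 of 4 were higher (4.13% of all genes), Slc3a2 and Ddit4, and Cebpb was lower (5.02% of all genes).

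Other sensors of the unfolded protein response (8 genes) had 0 past 1.5 times in 4 classes and 1 of 6 lower in neuroblast-marker cells, the protease gene Mbtps2 (28.2 against 18.4 CPM). Their median in astrocyte-marker cells was -0.32 and became -0.01 with the length trend removed. Lists that mark the state of the cells also differed. Immediate early genes (16 genes) had medians of 0.06, 0.28, 0.01, -0.16 and -0.30 in astrocyte-, oligodendrocyte-, neuroblast-, microglia- and endothelial-marker cells. In microglia-marker cells 2 of 15 were lower and 0 higher by 1.5 times, where 6.16% and 4.88% of all genes were. In oligodendrocyte-marker cells 4 of 12 were higher and 2 lower, beside 2.59% and 3.71% of all genes. The summed level of immediate early genes in microglia-marker cells was 25131 CPM in WT and 21347 CPM in KO. Heat shock and dissociation stress genes (10 genes) had medians of 0.24, -0.06, 0.16, -0.06 and 0.18 in the same order of classes. In astrocyte-marker cells 1 of 10 was higher by 1.5 times (2.28% of all genes), Gadd45g, a growth-arrest gene, at 1.12. In oligodendrocyte-marker cells 1 of 8 was higher (2.59%). In microglia-marker cells 2 of 8 were higher and 1 lower (4.88% and 6.16%). Neuroblast- and endothelial-marker cells had 0 of 5 and 0 of 4 past 1.5 times. Outside neuroblast-marker cells, the interferon-stimulated list had medians of -0.35 in astrocyte-, -0.27 in oligodendrocyte-, -0.32 in microglia- and 0.11 in endothelial-marker cells. In astrocyte-marker cells 2 of 12 were higher by 1.5 times and 0 lower, beside 2.28% and 7.36% of all genes. In oligodendrocyte-marker cells 1 of 5 was higher and 1 lower (2.59% and 3.71%). In microglia-marker cells 1 of 4 was higher and 1 lower (4.88% and 6.16%). In endothelial-marker cells 0 of 13 passed 1.5 times. The part of these lists in the ratios of the eIF2 genes was not tested.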

How the data were processed

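The deposited matrices, 1 for WT and 1 for KO, give unnormalized counts of UMIs, made by the authors with Cell Ranger 4.0.0 on mm10, per the submitters' processing notes. Those notes also name Seurat 3.0 and R 4.0.3 but no annotation release. The members and gene lists were chosen with earlier results of these data known.

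The cell filter removed 27.9% of WT and 18.5% of KO barcodes. A cell entered a class if it held 3 or more of the class's markers and reached 25% of the reference share of marker UMIs, taken as the median over cells with 5 or more markers. Of 18 cell types with markers, 15 had the 25 reference cells required, while neurons, border-associated macrophages and dendritic cells were not gated. Gate thresholds and bins were set with the data in view. Cells in more than 1 class were set aside and no doublet caller was run, and 123 WT and 196 KO cells were in no class. A main class has 100 or more cells per library.

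Counts were summed per class and library and scaled to CPM, with exact 95% intervals: Poisson for levels, conditional binomial for ratios and Clopper-Pearson for shares of cells. Log2 ratios carry no pseudocount. A gene was called at 1.5 times if it had 100 or more UMIs in the class. Alternatives were other cell filters and gates, equal weight per cell, equal depth (2000 UMIs per cell), trimmed-mean scaling, and subtraction of the median of 20 transcript-length bins. At an equal depth, cells with fewer UMIs than that depth were left out. The trimmed-mean shift subtracted from all ratios was -0.14 in astrocyte-marker and -0.12 in neuroblast-marker cells. Equal depth at 4000 UMIs per cell, depth and mitochondrial strata of astrocyte-marker cells, and removal of interferon-rich neuroblast-marker cells, were added after the data were seen. GENCODE M21 positions matched 99.8% of genes. All 9 members are named; from each list the 2 highest, 2 lowest and 2 most abundant genes of a class may be; and the 3 genes most like each member by Pearson correlation of log2(CPM + 10). Atf4 is named besides, because it heads its list. The calculations were tested on simulated data. Versions were Python 3.11.15 with matplotlib 3.10.9, pandas 2.3.3, scipy 1.17.1 and numpy 2.4.6.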

Additional observations from a re-analysis of the deposited data

How the results depend on the processing

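Of 34 ratios of the 9 genes with at least 100 UMIs in a class, 18 kept their sign under every alternative run for that class and 16 changed it under at least 1. Eif2ak4, the 1 gene lower by 1.5 times in astrocyte- and in oligodendrocyte-marker cells, dropped out in both without the transcript-length trend (0 lower). At an equal depth of 2000 UMIs per cell 0 genes were lower in astrocyte-marker cells and 1 was higher there (Ppp1r15a, 0.79 on the log2 scale), 2 were higher in neuroblast-marker cells (Eif2ak3, 0.70, from 4 and 11 UMIs, and Eif2b5, 1.13, from 10 and 37 UMIs), and the 1 lower in oligodendrocyte-marker cells was Eif2b5 (-0.78, from 42 and 34 UMIs) in place of Eif2ak4. Apart from Ppp1r15a, these rested on under 100 thinned UMIs.

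The following alternatives were added after seeing the data. At an equal depth of 4000 UMIs 2 genes were lower in astrocyte-marker cells (Eif2ak3, -0.85, and Eif2ak4, -0.97) and Ppp1r15a was at 0.52, short of 1.5 times. At that depth 0 were lower in oligodendrocyte-marker cells, where Eif2b5 was at 0.10, and 1 was lower in neuroblast-marker cells (Eif2ak3, from 17 and 13 UMIs), where Eif2b5 was at 0.14. Also at 4000 UMIs, 1 was higher in microglia-marker cells (Eif2s2, 0.59) and 2 in endothelial-marker cells (Eif2s1, 0.84, from 11 and 24 UMIs, and Eif2s2, 0.61). Astrocyte-marker cells with under 5000 UMIs gave 2 lower, Eif2ak3 (19 and 27 UMIs) and Eif2ak4 (28 and 42 UMIs), with intervals that included 0. These cells gave the opposite sign for Eif2s1 (-0.28), Eif2s2 (-0.12) and Ppp1r15b (0.17). Those with 5000 to 10000 UMIs gave 2 lower and 2 higher (Eif2s1 and Eif2s2). The lower were Eif2ak3 (30 and 94 UMIs, interval -1.19 to 0.06) and Eif2ak4 (57 and 130 UMIs). Those with 20000 or more, 138 WT and 62 KO cells, gave 4 lower (Eif2ak2, Eif2ak3, Eif2ak4 and Ppp1r15b). They also gave 1 higher (Ppp1r15a, 0.92, or 0.35 without 1 KO cell). The lower rested on 78 and 19, 35 and 7, 57 and 14, and 188 and 55 UMIs in that order. The interval of Eif2ak3 included 0 (-2.61 to 0.003).

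The stricter filter on cells gave 1 lower in neuroblast-marker cells (Eif2ak3, -0.60). Weighing each cell the same gave 1 lower in microglia-marker cells (Eif2ak2, -0.88) and 1 higher in endothelial-marker cells (Eif2s1, 0.60). No share of all genes is set beside the counts under the alternatives, so those counts set no member apart. The cause of these moves was not tested. Depth is the limit in the smaller classes, where Eif2ak4 had 38 UMIs or fewer in any library. No paired analysis was possible because each genotype had 1 library.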
